A study of Mus musculus with 8 samples.

Results

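Complement is a cascade of plasma and tissue proteins that marks cells and debris for removal. In its classical arm C1q, built from the A, B and C chains, binds a surface and the attached proteases C1r and C1s cleave C4 and C2 into an enzyme that splits C3. The alternative arm does the same with factor B (Cfb) and is stabilised by properdin (Cfp), and the C1 inhibitor (Serping1) blocks C1r and C1s. Most components come from the liver, whereas C1q is made mainly by macrophages and dendritic cells, and T cells are not known as a main source of it. The genes described here are 9 of this cascade, C1qa, C1qb, C1qc, C1ra, C2, C3, Cfb, Cfp and Serping1, measured in T cells isolated from grafts. They were found as the probe sets whose annotation lists that gene and no other, which gave 8 probe sets for 8 genes out of 21218 such probe sets for 18820 genes. C3 had no probe set of that kind and was not analysed here.

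The samples were CD3-positive T cells taken at day 30 from grafts of tissue derived from human embryonic stem cells, in wild-type CD1 mice, an outbred strain. In 4 samples (rejecting) the host was untreated and rejected the graft, and in 4 samples (tolerant) the host had been made tolerant by injections listed as anti-CD4, anti-CD8 and CD40L, read here as antibodies to the T cell co-receptors and the CD40 ligand. Each sample was 1 array, numbered 1 to 4 within its group. The labels do not say whether a sample came from 1 mouse or from several, so a p-value speaks only of the spread among these arrays, part of which may be technical. Values are log2 RMA values, in which 1 unit is a doubling, and differences are tolerant minus rejecting, with standard errors written SE. In sorted cells assayed in bulk, fewer cells of a type and less RNA per cell cannot be told apart.

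The arrays fell into sets that cut across the groups. Each gene is therefore given for the arrays numbered 1 and 2 and those numbered 3 and 4. This split was made with earlier results of these data known, and the labels do not say what separates the sets. A background line was drawn on each array at the 99th percentile of 1180 probe sets for smell and pheromone receptors (olfactory and vomeronasal), which T cells should lack. The lines lay between 0.991 and 1.35. The share of probe sets above the line was 2.53% to 5.72% on the arrays numbered 1 and 2 and 10.6% to 17.1% on those numbered 3 and 4. It was 15.1% on rejecting array 3 and 10.6% on rejecting array 4, against 17.1% on each of tolerant arrays 3 and 4. Of the T cell markers, Cd3e and Cd5 lay above the line on 5 arrays each and Cd3g on 2, and Cd3d and Cd247 on 0 of the 8.

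C1qb and C1qc lie next to each other on chromosome 4, with C1qa next to C1qc. The promoters of C1qb and C1qc are shown, and no promoter sequence was at hand for C1qa. The sequences are RefSeq's, build GRCm38.p6, on the minus strand, read 5′ to 3′ toward the gene, at chr4:136886201-136886450 for C1qb and chr4:136892937-136893164 for C1qc. Capitals mark GAGGAA or its reverse complement, the core letters of sites for PU.1, a transcription factor of macrophages and other myeloid cells.
C1qb promoter: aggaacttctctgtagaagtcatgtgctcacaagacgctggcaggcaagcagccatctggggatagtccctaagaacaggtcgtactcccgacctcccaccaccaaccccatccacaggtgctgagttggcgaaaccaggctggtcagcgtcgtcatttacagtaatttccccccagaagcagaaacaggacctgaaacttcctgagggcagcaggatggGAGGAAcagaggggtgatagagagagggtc
C1qc promoter: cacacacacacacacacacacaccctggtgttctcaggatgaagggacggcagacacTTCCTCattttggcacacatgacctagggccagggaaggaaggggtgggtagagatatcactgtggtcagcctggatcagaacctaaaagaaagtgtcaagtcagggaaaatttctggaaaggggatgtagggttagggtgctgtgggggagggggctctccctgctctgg

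Positions are counted back from the start in the RefSeq promoter table. The match in C1qb lies 30 to 25 bases before that start on the sense strand, and that in C1qc 193 to 188 bases before it on the antisense strand. The stretch printed for C1qc stops 22 bases before that start, where the annotated gene begins, whereas the search covered all 250 bases. Promoter sequence was at hand for 5 of the 9 genes (C1qb, C1qc, C1ra, C3 and Cfp), and among these GAGGAA was found on either strand in the 250 bases before that start for C1qb and C1qc only. It was found in 23.3% of 32851 mouse promoter windows of that length. The interferon-gamma motif TTCNNNGAA (7.02% of windows), the interferon-stimulated response element (ISRE core, 2.98%) and TATAAA (12.4%) were found in 0 of the 5. No match overlapped another, and a match is only a run of letters.

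Serping1 showed the largest difference of the 8 genes on the arrays numbered 3 and 4. Serping1 (probe set 10484463) encodes the serpin that inactivates C1r and C1s and also inhibits kallikrein of the contact system. It read 2.33 and 0.94 (rejecting) against 3.83 and 4.20 (tolerant) on the arrays numbered 3 and 4. Both tolerant values lay above both rejecting values, by at least 1.50, and rejecting array 4 lay under its background line of 1.14. The mean difference was 2.38 (SE 0.44, limma adjusted p = 0.268), which did not pass. Its 95% interval, not adjusted for the number of genes, ran from 1.26 to 3.49, and the fold of 5.20 from 2.40 to 11.2. The difference ranked 13th of all 21218 probe sets.

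On the arrays numbered 1 and 2 Serping1 was under the line throughout. It read 0.82 and 0.49 (rejecting) against 0.58 and 0.80 (tolerant), so the groups overlapped. The difference there was 0.03 (SE 0.18, limma adjusted p = 0.991). Over all 8 arrays Serping1 had a mean of 1.15 ± 0.81 (SD, n = 4) for rejection and 2.35 ± 1.93 (SD, n = 4) for tolerance. They differed by 1.21 (SE 0.84, limma adjusted p = 1). With 1 array left out this ran from 0.59 (without tolerant replicate 4) to 1.80 (without tolerant replicate 1), and it was 0.71 without tolerant replicate 3. The groups overlapped, as tolerant arrays 1 and 2 lay below rejecting arrays 1, 3 and 4.

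Among the chains of C1q, the recognition part of the classical pathway, C1qb followed Serping1 most closely. C1qb (10517508) encodes the B chain and read 2.13 and 0.92 (rejecting) against 3.35 and 3.70 (tolerant) on arrays 3 and 4. The groups did not overlap, and rejecting array 4 again lay under its line. The difference was 2.00 (interval 1.02 to 2.99, SE 0.39, limma adjusted p = 0.290), which did not pass. It ranked 21st of all probe sets.

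In samples numbered 1 and 2 C1qb read 0.73 and 1.13 (rejecting) against 1.38 and 1.25 (tolerant). The tolerant values were the higher here too, but only tolerant array 1 lay above its line, of 1.33. The difference was 0.38 (SE 0.18, limma adjusted p = 0.936). Over all 8 arrays C1qb had a mean of 1.23 ± 0.62 (SD, n = 4) for rejection and 2.42 ± 1.28 (SD, n = 4) for tolerance. They differed by 1.19 (SE 0.58, limma adjusted p = 1), and by 0.77 without tolerant replicate 4.

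C1qc (10517513), the C chain, had the same order of samples on arrays 3 and 4 with smaller steps. It read 1.76 and 0.86 (rejecting) against 2.09 and 2.20 (tolerant) on arrays 3 and 4. The lowest tolerant value was 0.32 above the highest rejecting one, less than the 0.91 between the rejecting arrays. The difference was 0.83 (interval 0.10 to 1.57, SE 0.29, limma adjusted p = 0.624). At array numbers 1 and 2 it read 0.65 and 0.93 (rejecting) against 1.04 and 0.99 (tolerant), all under the line, with a difference of 0.23 (limma adjusted p = 0.944).

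C1qa (10517517), the A chain, read 1.30 and 0.68 (rejecting) against 1.06 and 1.98 (tolerant) on arrays 3 and 4. The groups overlapped, since tolerant array 3 lay below rejecting array 3. The difference was 0.52 (interval -0.35 to 1.40, SE 0.35, limma adjusted p = 0.774). On arrays 1 and 2 C1qa read 0.59 and 0.90 (rejecting) against 0.71 and 0.45 (tolerant), all under the line, with a difference of -0.16 (limma adjusted p = 0.957). Without tolerant replicate 4, the difference over all 8 arrays went from 0.18 to -0.13. On arrays 3 and 4 the difference of C1qa ran from 0.066 without tolerant replicate 4 and 0.21 without rejecting replicate 4 to 0.83 without rejecting replicate 3 and 0.98 without tolerant replicate 3. The chains are parts of 1 protein, and the estimates on arrays 3 and 4 were 0.52 for C1qa, 0.83 for C1qc and 2.00 for C1qb. C1qa exceeded C1qc (0.89) when tolerant replicate 3 was left out. The intervals overlapped for every pair of chains, and the differences between chains were not tested, as each probe set has its own response.

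**Figure D1:**
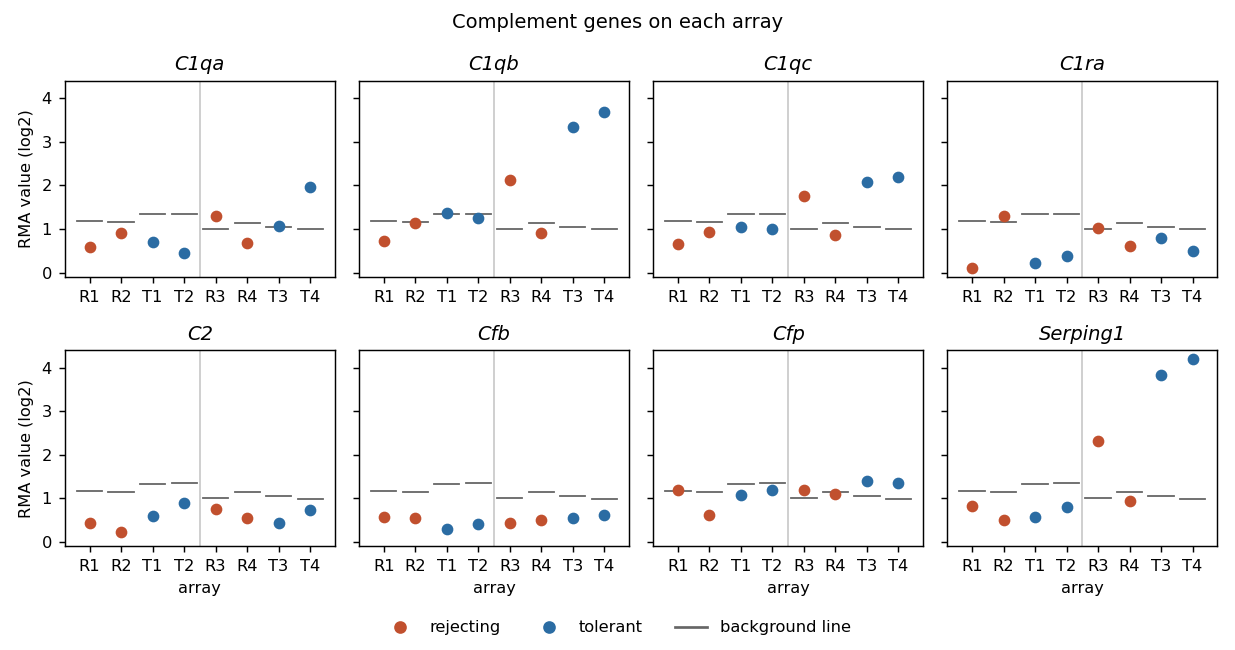
RMA value (log2) of each of the 8 complement genes on each array; R1 to R4 are rejecting and T1 to T4 tolerant arrays, each point is 1 array and the grey bars are the background lines. For Serping1 the tolerant arrays 3 and 4 sit at 3.83 and 4.20, above the rejecting arrays at 2.33 and 0.94, while C2 and Cfb lie under the line on every array.

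By their single-gene probe sets, the proteases of the classical pathway did not share this pattern. C1ra (10541678), which encodes the C1r protease, read 1.02 and 0.61 (rejecting) against 0.80 and 0.49 (tolerant) on arrays 3 and 4. The groups overlapped, and the difference was -0.17 (interval -0.63 to 0.29, SE 0.18, limma adjusted p = 0.848). In the other array set it read 0.10 and 1.30 (rejecting) against 0.23 and 0.38 (tolerant), the widest spread there of the 8 genes, with a difference of -0.40 (SE 0.33, limma adjusted p = 0.948). Rejecting arrays 2 and 3 were the only ones above the line. Another probe set (10541683) is annotated to both C1rb and C1ra, near-identical copies, and was left out by the rule. It lay between 0.44 and 1.08, above the line on 1 array. On arrays 3 and 4 it read 0.64 and 0.44 (rejecting) against 1.08 and 0.75 (tolerant). The tolerant values were the higher without overlap there, against 19.3% of all single-gene probe sets and unlike those of C1ra. This probe set was not part of the main fits.

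C2 (10450344), the protease that C1s cleaves, lay under the line on all 8 arrays. It read 0.76 and 0.55 (rejecting) against 0.43 and 0.74 (tolerant) on arrays 3 and 4, a difference of -0.07 with an interval from -0.45 to 0.31 (limma adjusted p = 0.925). In samples numbered 1 and 2 it read 0.42 and 0.22 (rejecting) against 0.59 and 0.89 (tolerant). The groups did not overlap there, and the difference of 0.42 came with SE 0.17 (limma adjusted p = 0.936).

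In the alternative pathway, Cfb (10450325), the protease that corresponds to C2, lay under the line on all 8 arrays. It read 0.44 and 0.50 (rejecting) against 0.55 and 0.62 (tolerant) on arrays 3 and 4. The groups did not overlap, but the difference was only 0.12 (SE 0.10, limma adjusted p = 0.83). At array numbers 1 and 2 the order was the opposite, with 0.57 and 0.54 (rejecting) against 0.30 and 0.42 (tolerant), a difference of -0.19 (SE 0.15, limma adjusted p = 0.948). Values under the line do not show whether C2 and Cfb were expressed.

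Cfp (10603860), which encodes properdin, a protein released by neutrophils, monocytes and T cells, stayed close to the line on most arrays. It read 1.18 and 1.11 (rejecting) against 1.40 and 1.36 (tolerant) on arrays 3 and 4. Both tolerant values were the higher, by 0.23 in the mean (interval -0.03 to 0.50, SE 0.10, limma adjusted p = 0.702). On arrays 1 and 2 it read 1.20 and 0.62 (rejecting) against 1.07 and 1.19 (tolerant), so the groups overlapped, with a difference of 0.22 (limma adjusted p = 0.951). Cfp differed less between the array sets than Serping1 did: arrays 3 and 4 exceeded arrays 1 and 2 by 0.24 for Cfp and by 2.15 for Serping1, without a test of that gap.

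Read over the members, the test called 0 of the 8 genes in any of the comparisons. Over all 8 arrays limma called 0% of the 21218 probe sets after adjustment, and 613 (2.89%) had an unadjusted p under 0.05, with 0 of the members among them. On arrays 3 and 4 it called 0.0518%, or 11 probe sets, and 7.21% passed unadjusted, among them Serping1, C1qb and C1qc. For arrays 1 and 2 it called 0%, and 1093 (5.15%) passed unadjusted, among them C2. On arrays 3 and 4 the tolerant values lay above the rejecting ones without overlap for 5 of the 8 (Serping1, C1qb, C1qc, Cfp and Cfb), against 19.3% of all probe sets. The difference exceeded 1 unit for Serping1 and C1qb, against 0.528% of all probe sets, and the mean was higher for 6 of the 8, against 48.2%. The median difference of the 8 was 0.379, against -0.00635 over all genes. It was 0.168 without tolerant replicate 4 and 0.206 without rejecting replicate 4, and reached 0.554 without tolerant replicate 3.

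In the other array set the tolerant values lay above without overlap for 3 of the 8 (C1qb, C1qc and C2), against 17.2% of all probe sets, and below for Cfb, against 17.1%. The mean was higher for 5 of the 8, against 49.4%, and the median difference was 0.126. A difference over 1 unit was seen for 0 of the 8, against 0.0283%. Over all 8 arrays the groups did not overlap for 0 of the 8, against 1.09% of all probe sets higher and 1.13% lower. The mean was higher for 6 of the 8, against 50.1%, with a median difference of 0.203. Serping1 and C1qb exceeded 1 unit, against 0.104%. The genes had been picked with earlier results of these data known, so these counts describe them and support nothing further.

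**Figure D2:**
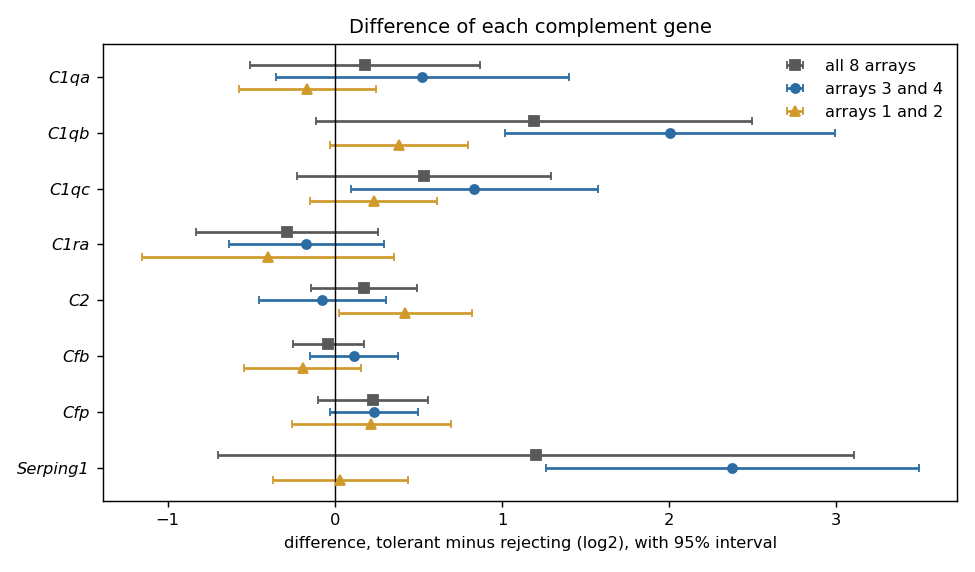
Difference between tolerant and rejecting samples (log2) for each gene over all 8 arrays (squares), arrays 3 and 4 (circles) and arrays 1 and 2 (triangles), with limma's 95% interval, unadjusted. On arrays 3 and 4 the intervals of Serping1 (1.26 to 3.49), C1qb (1.02 to 2.99) and C1qc (0.10 to 1.57) lie to the right of 0, and that of C2 does so on arrays 1 and 2.

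Whether the difference itself differed between the array sets was tested as an interaction. For Serping1 the difference on arrays 3 and 4 exceeded that on arrays 1 and 2 by 2.34 (SE 0.52, limma adjusted p = 0.238), and for C1qb by 1.62 (SE 0.47, limma adjusted p = 0.506). For C1qa it was 0.69, for C1qc 0.60, for Cfb 0.31, for C1ra 0.23, for Cfp 0.02 and for C2 -0.49, and 0 of the 8 passed. Unadjusted, Serping1 and C1qb passed, against 7.13% of all probe sets. The interaction called 0.0566% of all probe sets (12), and 7 probe sets once replicate numbers were blocked. With so few probe sets above the line on arrays 1 and 2, an absent difference there cannot be told apart from an absent signal.

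The call on arrays 3 and 4 depended on where the spread was estimated. When the spread between samples was taken from all 8 arrays, Serping1 passed with the same difference of 2.38 (limma adjusted p = 0.0380) and C1qb with 2.00 (limma adjusted p = 0.0497), and 81 probe sets were called in place of 11. The arrays numbered 1 and 2, which add to that estimate, held Serping1 between 0.49 and 0.82 and C1qb between 0.73 and 1.38. In the remaining fits the adjusted p of Serping1 lay at 0.0608 or above, and it did not pass. Its difference ran from 1.69 without rejecting replicate 4 to 3.07 without rejecting replicate 3, and that of C1qb from 1.40 to 2.61.

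The rejecting samples of this set stood further apart than the tolerant ones for most of the C1q genes and Serping1. Rejecting array 3 exceeded rejecting array 4 by 1.38 for Serping1, 1.21 for C1qb, 0.91 for C1qc and 0.62 for C1qa. The tolerant arrays 3 and 4 lay closer to each other than that for Serping1, C1qb and C1qc, but not for C1qa. By array number, tolerant exceeded rejecting for Serping1 by 1.50 on array 3 and by 3.25 on array 4, and for C1qb by 1.23 and 2.78. For C1qc, which had 0.32 and 1.35, the difference was 0.38 without rejecting replicate 4 and 1.29 without rejecting replicate 3, against 0.83 on all 4 arrays. Rejecting array 4 also had the smallest share of probe sets above the line in this set, 10.6%. The part of that low share in these differences was not tested.

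The genes whose profiles were most like those of the members were sought over the 8 arrays, each gene minus its own mean, by the root mean square difference between profiles. For Serping1, whose own deviation was 1.42, they were Apoe at 0.209, Sparc at 0.420 and Lyz2 at 0.445, and C1qb was the 6th at 0.465. Apoe, an apolipoprotein made by macrophages and other cells, read 3.46 and 2.16 (rejecting) against 4.75 and 4.85 (tolerant) on arrays 3 and 4. It was high on rejecting array 3 and low on rejecting array 4, as Serping1 was. Sparc is a matrix glycoprotein, and Lyz2 is the lysozyme of macrophages and granulocytes.

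For C1qb, with an own deviation of 1.06, the most like genes were the interferon-inducible Ifitm3 at 0.279, Lyz2 at 0.307 and Serpinf1 at 0.318, with Serping1 20th and C1qc 30th. For C1qc, at 0.567, they were Zfp36l2 (0.146), Zfp36l1 (0.175) and Myl12b (0.182). For C1qa, at 0.461, they were Ecm1 (0.103), Gna13 (0.137) and Setd3 (0.156). This measure counts the size of the deviations as well as their order. By it, Serping1 and the chains of C1q were not each other's closest profiles. C1ra, with an own deviation of only 0.380, lay closest to Snph, Smox and Irx1. Cfp, at 0.224, lay closest to Rnf214, Tmem104 and Tcf7l2. These genes lay at differences of 0.0589 to 0.146, which are to be read against those small deviations.

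**Figure D3:**
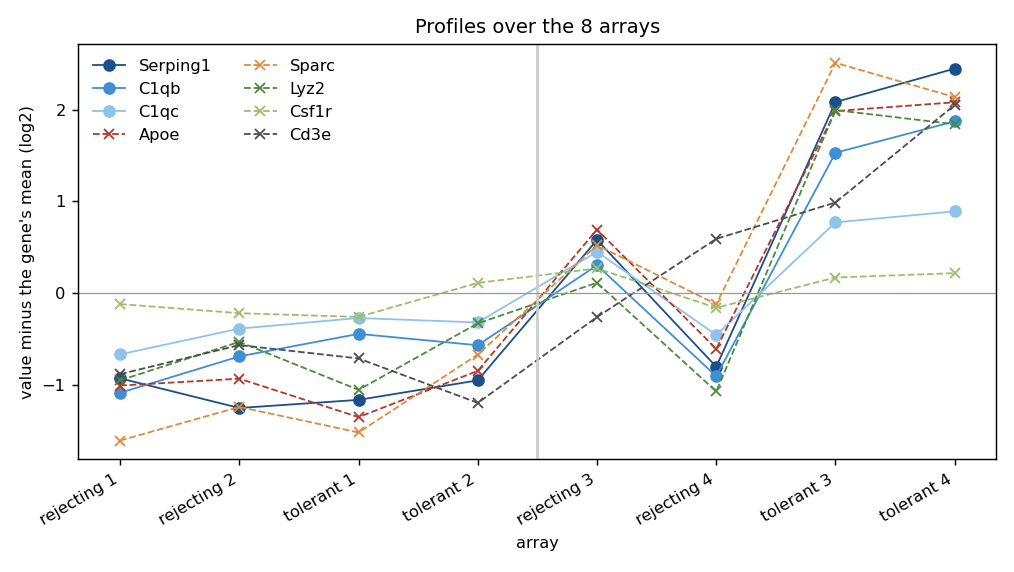
Value minus the gene's own mean over the 8 arrays (log2) for Serping1, C1qb and C1qc (solid) and for Apoe, Sparc, Lyz2, Csf1r and Cd3e (dashed); each point is 1 array and the lines only join the points of a gene. Serping1 and Apoe run together, at a root mean square difference of 0.209, with rejecting array 3 above rejecting array 4, whereas Cd3e is the higher on rejecting array 4.

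Markers of other cells were set beside these values. In the macrophage and monocyte list, without complement genes, 8 of 11 measured members were higher on tolerant arrays 3 and 4, against 48.2% of all probe sets, and 0 passed, against 0.0518%. Their mean level was 0.610 and 0.461 with rejection and 0.939 and 0.986 with tolerance on these arrays. Lyz2 read 1.41 and 0.23 (rejecting) against 3.30 and 3.14 (tolerant), a difference of 2.40 (limma adjusted p = 0.218). Cd68, a lysosomal protein of macrophages, had 1.05 (limma adjusted p = 0.407) and Csf1r, the receptor for their growth factor, 0.14 (limma adjusted p = 0.859). Adgre1, Cd14, Fcgr1, Mertk, Cd163 and Marco were under the line on all 8 arrays. The part of macrophage RNA in the C1q and Serping1 values was not tested.

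Fibroblast and kidney tubule markers were higher on tolerant arrays 3 and 4 too, each list being read against 48.2% of all probe sets higher and 0.0518% called. All 6 fibroblast markers were higher, and 0 passed. Their mean level was 1.74 and 1.47 (rejecting) against 2.59 and 2.48 (tolerant), and Dcn, a matrix proteoglycan, had a difference of 3.21 (limma adjusted p = 0.0581). The other fibroblast markers differed less, Col1a1 by 0.72, Col1a2 by 0.53, Col3a1 by 0.51, Lum by 0.49 and Pdgfra by 0.11. Lum and Pdgfra were under the line on all 8 arrays. All 6 kidney tubule markers were higher, and 2 passed, Slc12a3 by 2.93 (limma adjusted p = 0.0359) and Calb1 by 1.64 (limma adjusted p = 0.0440). Umod by 3.69 (limma adjusted p = 0.226) and Slc12a1 by 1.97 (limma adjusted p = 0.184) did not pass. Neither did Aqp2 by 0.89 and Lrp2, under the line, by 0.13. The mean level of the 6 was 0.828 and 0.894 (rejecting) against 3.03 and 2.45 (tolerant). Between the rejecting arrays this mean differed little, and the tubule markers were split. Aqp2 (1.56 on rejecting array 3, 1.05 on rejecting array 4) and Lrp2 were the higher on array 3, as Serping1 was. Umod, Slc12a1, Slc12a3 and Calb1 were the higher on array 4. The fibroblast markers other than Pdgfra were the higher on array 3. The part of these tissues in the values of Serping1 was not tested.

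The T cell markers were higher for 5 of 6 on tolerant arrays 3 and 4, against 48.2% of all probe sets, with 0 passing, against 0.0518%, and their mean level was 0.980 and 1.15 (rejecting) against 1.25 and 1.67 (tolerant). Cd3e, part of the CD3 signalling complex, was the higher on rejecting array 4 (2.36, against 1.51 on rejecting array 3), the opposite of Serping1, whereas Cd5, a surface receptor of T cells, was the higher on rejecting array 3 (1.33, against 1.22). The 5 hepatocyte markers and 4 neutrophil markers were under the line on all 8 arrays. On 2 or more arrays, 1 of 6 dendritic cell markers (Flt3), 1 of 5 endothelial markers (Emcn) and 0 of 3 B cell markers lay above it. The median difference on arrays 3 and 4 was 0.03 for dendritic cell, 0.02 for endothelial, -0.05 for B cell, -0.08 for hepatocyte and -0.10 for neutrophil markers. Emcn, a surface protein of endothelial cells, stood apart from the other endothelial markers, which were under the line on all 8 arrays. It read 0.49 and 0.28 (rejecting) against 1.74 and 1.52 (tolerant), a difference of 1.25 (limma adjusted p = 0.111), and its part in the values of Serping1 and the C1q genes was not tested.

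The rest of the complement system was mostly under the background line. Of 47 other complement genes listed, 38 had a probe set, and 33 of these were under the line on all 8 arrays, against 73.6% of all probe sets and 2 of the 8 members (C2 and Cfb). The test called 0 of the 38 on arrays 3 and 4, against 0.0518% of all probe sets, and 0 over all 8 arrays. The mean was higher in tolerant samples on arrays 3 and 4 for 19 of the 38, against 48.2%, and the median difference was 0.00174. Groups did not overlap for 5 higher, against 19.3%, and for 8 lower, against 20%.

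Receptors and regulators held the largest of these differences. C3ar1, the receptor for the C3a fragment on myeloid cells, read 0.51 and 0.57 (rejecting) against 1.05 and 1.45 (tolerant) on arrays 3 and 4, a difference of 0.71 (SE 0.16, limma adjusted p = 0.384). It lay above the line on both tolerant arrays, and over all 8 arrays the tolerant values exceeded the rejecting ones without overlap. Of the 38 genes C3ar1 alone did so, against 1.09% of all probe sets. Itgam and Cd55, an inhibitor of the C3-splitting enzymes, were lower in tolerant samples without overlap, against 1.13%, both at values under the line. Itgb2, the shared chain of the receptors for cleaved C3, had a difference of 0.47 (limma adjusted p = 0.747), and Itgam, the partner chain in complement receptor 3, -0.15 at values under the line. Clu, clusterin, which holds back the terminal complex, read 0.85 and 1.14 (rejecting) against 1.64 and 1.37 (tolerant), a difference of 0.51 (limma adjusted p = 0.568). Cd46 and Cfhr2 had differences of -0.22 and 0.12, both under the line. In samples numbered 1 and 2 the differences were 0.33 for C3ar1, -0.15 for Itgb2 and -0.35 for Clu.

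Other parts of the cascade gave small differences at low values. Among the remaining components, C4a, C1s1 and Hc, which encodes C5, had 0.32, 0.18 and -0.15, and 0 of 5 measured genes lay above the line on any array. C1s2, another of these, had 0.15 there but -0.72 on arrays 1 and 2 (SE 0.16, limma adjusted p = 0.936). Its interaction of 0.87 (SE 0.19, limma adjusted p = 0.238) had the same adjusted p as that of Serping1, at values under the line. In the lectin pathway Mbl2, Colec12 and Mbl1 had -0.13, 0.10 and -0.09. Colec11, a collectin, was the exception in level, above the line on 7 of the 8 arrays, with a difference of 0.05. In the terminal pathway, whose proteins form the pore of the membrane attack complex, C8a, C8g and C9 had -0.26, -0.20 and -0.09, and 0 of 5 lay above the line on any array.

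**Figure D4:**
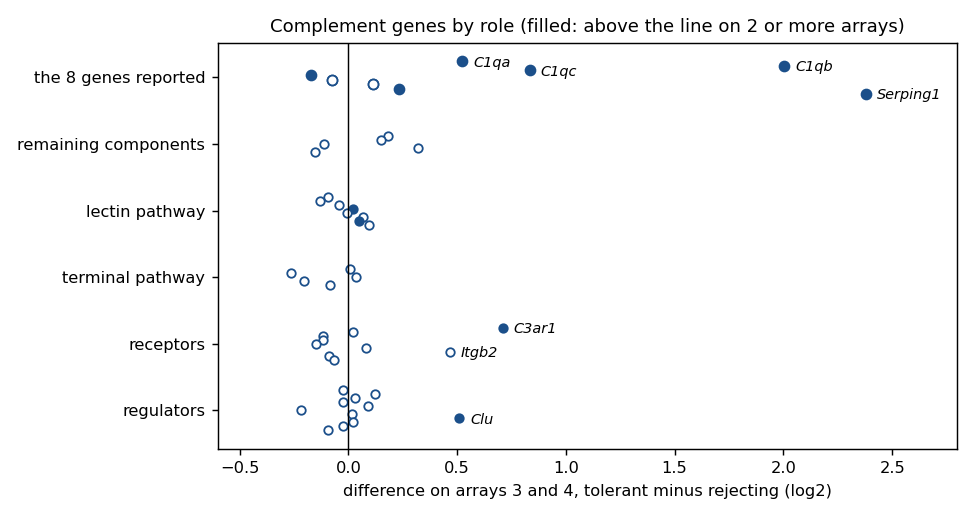
Difference between tolerant and rejecting samples on arrays 3 and 4 (log2) for the 8 genes and for 38 other complement genes by role; filled points lay above the background line on 2 or more of the 8 arrays. Serping1 at 2.38 and C1qb at 2.00 lie apart from the 38 other complement genes, whose highest is C3ar1 at 0.71. C1qc, among the 8 genes, lies at 0.83.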

How the data were processed

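RNA of CD3-positive T cells was measured on 8 arrays. The authors deposited log2 values, and the submitters' processing notes name RMA and Affymetrix Expression Console. The sources used here give no version, logarithm base or build. Base 2 was taken from the range of the values. RMA equalises distributions between arrays, which can shrink a general difference in signal.

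Of 35556 probe sets, 21218 had 1 gene symbol, 1881 several and 12457 none listed. Symbols were updated through Entrez identifiers to GRCm38.p6. A gene other than the members was represented by its probe set with the highest mean.

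Differences were tested with limma 3.58.1 in R 4.3.3 (lmFit and eBayes, 2-sided, Benjamini-Hochberg over the 21218 probe sets, threshold 0.05) and checked on simulated data. Python 3.11.15 and matplotlib 3.10.9 drew the plots. The number of arrays limits the precision. Alternatives were leaving out each array, a replicate block, an array set block, quantile normalization again, median centring, a filter on dim probe sets, all probe sets, trend and robust moderation, a shared spread and a 95th-percentile line. Arrays with 1 number in both groups deviated together across probe sets (r = 0.499, 0.507, 0.410 and 0.599). The main fits did not treat the numbers as pairs, and the replicate block was an alternative only. A pairing by number would come from the data, and other-numbered arrays of the same set gave similar values (0.411 to 0.581).

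All members were named, with up to 3 other complement genes per role by the size of the difference on arrays 3 and 4. The 3 most like profiles of members above the line on at least 2 arrays were named too. The first markers of each list (up to 3) were to be named as well. Of the dendritic cell, endothelial, hepatocyte, neutrophil and B cell lists, only Flt3 and Emcn were, which lay above the line on 2 or more arrays. Colec11, Cd55, C1s2, Apoe's values and markers outside the first 3 of a list were singled out after their values were seen, as were the promoter motifs. The members, the lists and the split into array sets were chosen with earlier results of these data known.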

Additional observations from a re-analysis of the deposited data

Results flagged for a closer look

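Cfp on rejecting array 2 stood apart from the other 3 rejecting arrays. It read 0.62 against 1.11 to 1.20 on the others, and its gap to the nearest of them was 0.846 of the range of the group, above the 95% bound of Dixon's test for 4 samples. Chance gives such a gap in about 1 in 20 groups if all samples of a group come from 1 population, and 16 groups were examined. The other 15 groups, among them those of Serping1 and the C1q genes, had no such gap. Each group mixed arrays of both sets, so where the sets lay far apart the test could not flag an array. Serping1 in tolerance, for example, read 0.58 and 0.80 on arrays 1 and 2 and 3.83 and 4.20 on arrays 3 and 4.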

How the results depend on the processing

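Over all 8 arrays, 0 probe sets were called under every alternative run. On arrays 3 and 4 the count of 11 went to 5 with the filter on dim probe sets, 0 with all probe sets tested, 26 with trend and robust moderation and 81 with the spread shared over all 8 arrays, and ran from 0 to 48 when 1 array was left out. The interaction count of 12 went to 7 with the replicate block, 0 with quantile normalization again and 0 with all probe sets tested, and from 0 to 76 when 1 array was left out. On arrays 1 and 2 the count ran from 0 to 2. Of 203 alternative values for the 8 genes, 196 kept their direction and side of the threshold, 2 passed (Serping1 and C1qb with the shared spread) and 5 turned sign, all when 1 array was left out. Those were C2 on arrays 3 and 4 (-0.23 to 0.084), C1ra there (-0.37 to 0.030), Cfb over all 8 arrays (-0.088 to 0.019) and C1qa there (-0.13 to 0.38). The cause was not tested. The replicate block changed the call of 0 of the 8 genes. With the 95th percentile as the line, C1qb, C1qc and Cfp lay above it on 7 arrays, in place of 4, 3 and 4. C2 then lay above it on 2 arrays and Cfb on 1, in place of 0. Medians over genes left by the filter were not run. Averaging a gene's probe sets left the members' median as it was, since each member has 1.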
